A study of Homo sapiens with 10 samples.

Results

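The clustered protocadherins were the protein-coding genes of the count table whose GENCODE symbol begins with PCDHA, PCDHB, PCDHGA, PCDHGB or PCDHGC. There were 53 of them among the 60448 genes of the table, 15 in the alpha cluster, 16 in the beta cluster and 22 in the gamma cluster. All lay on the plus strand of chromosome 5, at chr5:140786136-141512977 in GRCh38, a stretch of 727 kb. They were compared in RNA sequencing of 2 untreated (WT) human cell lines with 5 independent replicate libraries each. EA.hy926 is a fusion of an umbilical vein endothelial cell with the lung carcinoma line A549, grown here in Advanced DMEM with 5% serum. HMEC-1 derives from microvascular endothelium of the skin and was immortalized with the SV40 large T antigen, grown here in MCDB 131 with 10% serum, hydrocortisone at 1 μg/mL and EGF (epidermal growth factor) at 10 ng/mL. Each group is therefore 1 line in its own medium, and a difference of line and a difference of medium cannot be told apart.

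Clustered protocadherins are cell surface adhesion proteins of the cadherin superfamily, best known from neurons, where each cell expresses its own combination and uses it to tell its own branches from those of other cells. Each alpha and gamma gene has its own promoter and its own large first exon for the extracellular part, spliced to constant exons at the end of the cluster, while beta genes are single-exon genes with no constant part. A promoter is chosen when CTCF and cohesin loop it to a distant enhancer, and DNA methylation keeps other promoters silent. The C-type genes (PCDHAC1, PCDHAC2, PCDHGC3, PCDHGC4 and PCDHGC5) at the ends of the alpha and gamma clusters are less subject to this choice in neurons.

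Library totals ran from 34846046 to 39899324 counts for EA.hy926 and from 33391640 to 43877224 for HMEC-1, and the lowest correlation of log counts between replicates of a line was 0.9949, so no library stood apart. Per library, members took 2252 to 2533 of these counts in the former line and 3914 to 5045 in the latter. Of 12 endothelial marker genes, 11 in EA.hy926 and 12 in HMEC-1 were over the detection cutoff in every library, and the exception in EA.hy926 was CLDN5 with 0 to 5 counts. Markers of other cell types also differed between the lines. The summed level of 7 fibroblast genes was 0.937 to 1.6 CPM (counts per 1000000 of the TMM-scaled library total) in EA.hy926 but 473 to 502 CPM in HMEC-1, with LUM and DCN at 0 in both. The summed level of 6 neuronal genes was 73.1 to 80.7 CPM in EA.hy926 but 1.06 to 1.86 CPM in HMEC-1, with STMN2 at 0 in all libraries and SNAP25 at 0 to 2 counts. SYT1 alone gave 72.3 CPM of the EA.hy926 sum, and RBFOX3 was the other way (0.0111 against 0.0937 CPM). The summed level of 10 epithelial genes was 1274 to 1388 CPM in EA.hy926 but 424 to 486 CPM in HMEC-1, with CDH1, ESRP1, ELF3, GRHL2 and SFTPB at 3 counts or fewer in every library. KRT7 (622 against 314 CPM) and KRT8 (546 against 19.2 CPM) carried that difference, and KRT19 was higher in HMEC-1 (3.56 against 0.132 CPM). The part of these marker differences in the protocadherin results was not tested.

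Promoter sequences were taken from RefSeq (GRCh38.p14, plus strand, 250 bases before to 50 after each gene start) and matched for 47 of the 53 members. PCDHA3, PCDHA13, PCDHB6, PCDHB11, PCDHGA12 and PCDHGC5 had no entry. Clustered protocadherin promoters are known for a conserved element with the core CGCT, at which CTCF binds. The core was found on either strand in 46 of the 47 promoters, all but PCDHA9, and in 70.0% of the 35116 promoters in the table, so that the letters around it carry the resemblance. Windows of 30 bases are printed here for members on which the results turn, with the core in capitals. Most show that resemblance within each cluster. The windows of PCDHAC1, PCDHB1 and PCDHGC4 show little of it. They matched the most frequent bases of their clusters at 12, 14 and 16 positions, against cluster medians of 23, 24.5 and 24. From the alpha cluster, with PCDHA4 and PCDHA7 for the members with most counts in EA.hy926 and PCDHAC1 for the C-type:
PCDHA4 (chr5:140806977-140807006): tttggagccacatgatgtCGCTctttacca
PCDHA7 (chr5:140834170-140834199): atgatggccacatgatgtCGCTctttaccg
PCDHAC1 (chr5:140926218-140926247): aagcctagaaggtgtggtCGCTcacgttca

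From the beta cluster, with PCDHB2, PCDHB5, PCDHB7, PCDHB14 and PCDHB16 for members higher in EA.hy926, PCDHB13 for the tested member without a call and PCDHB1 for the member without a count:
PCDHB2 (chr5:141094542-141094571): ggaagagacgcggggtggCGCTgcagcctt
PCDHB5 (chr5:141135177-141135206): aattaggacgcctggtggCGCTgcaggcta
PCDHB7 (chr5:141172564-141172593): ccacaaaacgcaaggtggCGCTgctggcta
PCDHB14 (chr5:141223261-141223290): catggagacacatggtggCGCTacaggata
PCDHB16 (chr5:141182308-141182337): agtgagaacgcgtggtggCGCTgcaggtta
PCDHB13 (chr5:141213863-141213892): tgtgaggacgcgtggtggCGCTgcaggata
PCDHB1 (chr5:141051272-141051301): tagactggggagttgagtCGCTcaatgcaa

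From the gamma cluster, with PCDHGA2 for the member higher in EA.hy926, PCDHGB4, PCDHGB5, PCDHGA11 and PCDHGC4 for members higher in HMEC-1, and PCDHGC3 for the member with the most counts:
PCDHGA2 (chr5:141338701-141338730): atttaggcctctgagcgtCGCTgttgacca
PCDHGB4 (chr5:141387615-141387644): agtgctgactctgggcgcCGCTgttggcca
PCDHGB5 (chr5:141397861-141397890): agtgctgactctgggcgcCGCTgttggcca
PCDHGA11 (chr5:141420970-141420999): agaatgggctctaggcgcCGCTgctcacca
PCDHGC4 (chr5:141484950-141484979): ttggctgagcccgggagcCGCTgtctgcca
PCDHGC3 (chr5:141475878-141475907): ggctgggactctgtgtgcCGCTgtcggcca

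The clusters differed in the letters around the core. The word ATGATGTCGCT was in 8 of 13 alpha promoters and in 0.0228% of all promoters, and those 8 were the only promoters in the table with it. GGTGGCGCT was in 13 of 14 beta promoters, all but PCDHB1, and in 0.501% of all promoters. Its longer form GGTGGCGCTGCAG was in 10 beta promoters and in 0.0427% of all promoters. GNGNCGCTGTT was in 13 of 20 gamma promoters, in the beta promoter PCDHB3 and in 0.268% of all promoters. All 4 words hold the core CGCT, both strands were searched, and the words were read from the members' own windows, so their share among members is a description. In the beta cluster GGTGGCGCT stood in the promoter of PCDHB13, which did not differ between the lines by the test, as well as in those of PCDHB2, PCDHB5 and PCDHB14. The median number of CpG pairs in 300 bases was 7 over the members (2 to 27) and 14 over all promoters, with the most in PCDHAC1 (27), PCDHGC4 (23) and PCDHGC3 (18). Among members with a promoter entry, the beta members called higher in EA.hy926 had a median of 6.5. The gamma members called higher in HMEC-1 had a median of 7, and the other tested gamma members a median of 6.

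The most alike promoters within a cluster were those of PCDHGB4 and PCDHGB5, which were identical at 80.1% of aligned positions (249 identical, 40 mismatched and 22 gap positions). Among all pairs of gamma promoters identity ranged from 43.3% to 80.1% with a median of 48.6%. Both are printed whole, since both genes were among the members with the largest excess in HMEC-1, with the core of the element in capitals:
PCDHGB4 (chr5:141387448-141387747): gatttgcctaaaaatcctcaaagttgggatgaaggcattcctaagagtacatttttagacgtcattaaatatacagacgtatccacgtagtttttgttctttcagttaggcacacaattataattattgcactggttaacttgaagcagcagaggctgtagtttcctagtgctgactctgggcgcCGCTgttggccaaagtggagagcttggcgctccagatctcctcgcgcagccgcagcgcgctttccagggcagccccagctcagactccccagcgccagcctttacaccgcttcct
PCDHGB5 (chr5:141397697-141397996): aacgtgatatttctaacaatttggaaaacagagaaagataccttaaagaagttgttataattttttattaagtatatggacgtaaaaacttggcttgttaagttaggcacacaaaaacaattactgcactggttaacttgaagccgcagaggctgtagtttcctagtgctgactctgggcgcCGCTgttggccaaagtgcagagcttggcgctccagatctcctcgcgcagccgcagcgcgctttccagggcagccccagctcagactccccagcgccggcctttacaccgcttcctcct

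The alpha and gamma members end in the same constant exons, and this limits what a count per gene can hold. Stretches of 59, 89 and 2721 bases were shared by all 15 alpha genes, and stretches of 59, 89 and 2029 bases by all 22 gamma genes. PCDHGB4 and PCDHGA8 also overlapped each other. Each shared 4443 bases with other members, constant exons included, against 2177 in the other gamma genes. Only 35.6% of the exon bases of PCDHGB4 and 48.7% of those of PCDHGA8 were unshared, which limits the counts of both. The share of exon bases that no other annotated gene overlaps had a median of 50.5% in the alpha, 94.7% in the beta and 56.2% in the gamma cluster. How the authors' counting treated reads in shared exons is not given in the sources used here. PCDHA1, of whose exons only 7 bases are unshared, had 2 counts over all 10 libraries, and PCDHA9, PCDHA11, PCDHA12 and PCDHA13 had none, while PCDHA4 had 6 to 55 per library. Near-identical coding stretches add a second limit. Of the windows of 100 bases in unshared exons, those also present in another member made up 25.0% in PCDHB8, 17.3% in PCDHB2, 16.8% in PCDHB10, 16.7% in PCDHGB4, 15.1% in PCDHGB5 and 13.5% in PCDHB13, the gamma B pair sharing them with each other, and none in PCDHGA11, PCDHGC3 and PCDHGC4. Reads from such stretches could be split between genes or dropped. Unnamed or antisense genes that overlap members, among them PCDHB1-AS1 over 1797 bases of PCDHB2, had 0 to 8 counts in total, and whether the counting used strand is not given in the sources used here.

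The lines differed in how much RNA each cluster gave. Summed over its members, the beta cluster was 6.41-fold higher in EA.hy926 (25.6 ± 0.982 against 3.99 ± 0.467 CPM, SD, n = 5 each, scaled with TMM factors). The gamma cluster was 2.67-fold higher in HMEC-1 (104 ± 2.59 against 39.0 ± 2.31 CPM), and the alpha cluster was low in both (1.64 ± 0.165 CPM in EA.hy926 and 0.593 ± 0.0697 in HMEC-1). Neither cluster's ranges overlapped between the lines, beta counts being 899 to 985 against 136 to 179 per library and gamma counts 1292 to 1546 against 3732 to 4834. Gamma genes made up 58.9% ± 1.5 of all member counts in EA.hy926 and 95.8% ± 0.319 in HMEC-1, and beta genes 38.6% ± 1.59 and 3.66% ± 0.344. The excess of the alpha cluster rested on PCDHA4, without which the alpha sum was lower in EA.hy926 (log2 ratio -0.22, against 1.47 with it).

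**Figure D1:**
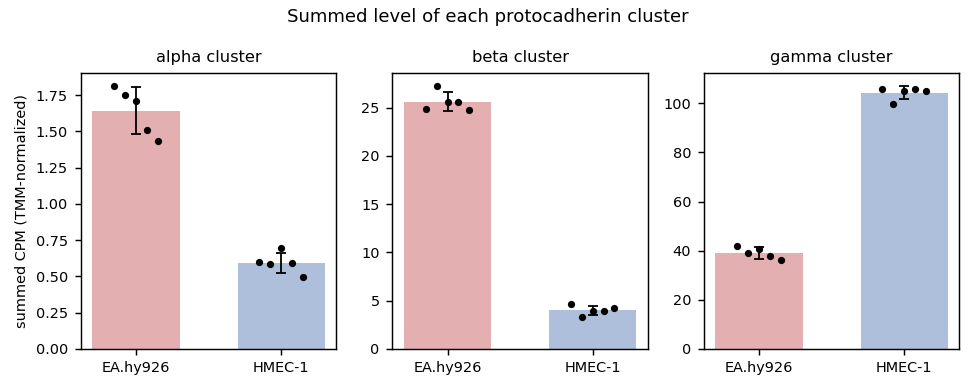
Summed CPM of the members of each cluster (vertical axis, linear, from 0) in EA.hy926 and HMEC-1, with bars for the mean, error bars for the SD and a point for each of the 5 libraries. The beta bars stand at 25.6 and 3.99 CPM and the gamma bars at 39.0 and 104 CPM, and no points of the lines overlap in any panel.

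Gene by gene, the lines were compared with the quasi-likelihood test of edgeR on the counts, with Benjamini-Hochberg adjustment over the 16310 genes that passed the filter on low counts. A gene was called when its adjusted p was under 0.05 and its log2 fold change (log2FC, positive for higher in EA.hy926) was over 1 in size. Of the 53 members 33 passed the filter, 1 alpha, 11 beta and 21 gamma. In all 24 members were called, where 35.5% of all genes tested were called. 12 members were called higher in EA.hy926, where 19.1% of all genes tested were called in that direction, and 12 higher in HMEC-1, where 16.4% were. Of the 12 higher in EA.hy926, 10 were beta genes, 1 was an alpha and 1 a gamma gene, and all 12 higher in HMEC-1 were gamma genes. Of the 33, 19 were over the filter's cutoff of 0.258 CPM in fewer than all 10 libraries. For a member that passed only through the line where it was high, the filter favoured a difference in that direction. Among the 14 over the cutoff in every library, 3 were called higher in EA.hy926 and 4 higher in HMEC-1. The median log2FC over these 14 was -0.22, against -0.01 over all genes tested. Over all tested members it was 2.87 in the beta and -1.16 in the gamma cluster, values that include members whose direction the filter favoured.

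**Figure D2:**
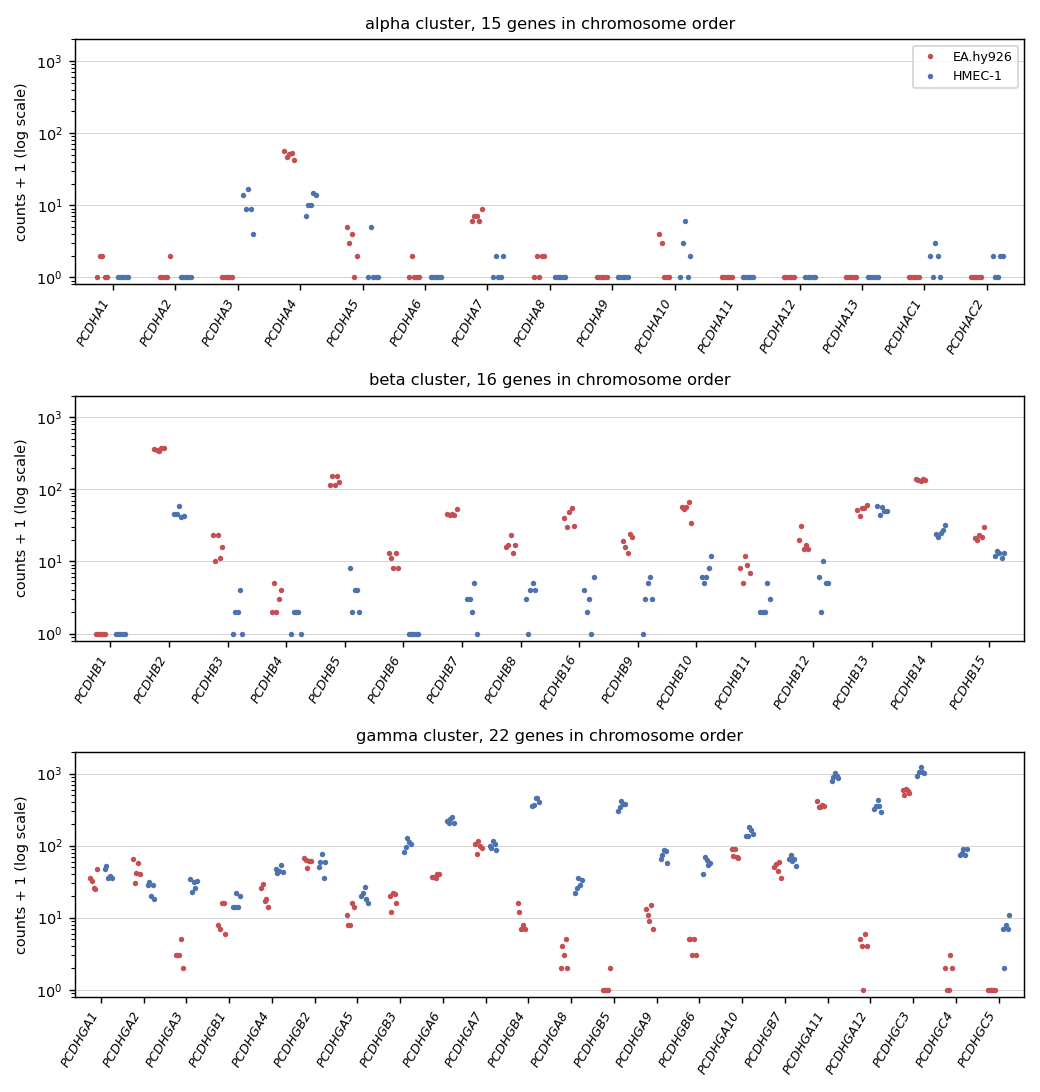
Counts plus 1 (vertical axis, log scale) of the 53 members in chromosome order, 1 panel per cluster, with a point for each EA.hy926 library and each HMEC-1 library. The tested beta genes lie higher in EA.hy926 except PCDHB13, and gamma genes such as PCDHGB4, PCDHGB5, PCDHGA12 and PCDHGC4 lie at 15 counts or fewer in EA.hy926 and between 73 and 464 counts in HMEC-1.

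The beta members called were all higher in EA.hy926. Of the 11 tested, PCDHB2, PCDHB13 and PCDHB14 were over the filter's cutoff in every library. PCDHB5, PCDHB7, PCDHB8, PCDHB9, PCDHB12 and PCDHB16 reached it in no HMEC-1 library. They passed the filter through EA.hy926 alone, which fixed their direction. PCDHB10 reached the cutoff in 1 HMEC-1 library and PCDHB15 in 4. PCDHB2 (chr5:141094606-141098703) had the most beta counts in EA.hy926 and, after PCDHB13, the second most in HMEC-1, with 362, 346, 343, 375 and 369 in EA.hy926 replicates 1 to 5 and 45, 45, 57, 40 and 42 in HMEC-1. Every EA.hy926 library was far above every HMEC-1 library, and the log2FC was 3.12 (SE 0.088, edgeR adjusted p = 1.6e-18). PCDHB2 was also the highest beta gene per length in both lines, at 4.32 ± 0.122 CPM per kilobase of unshared exon in EA.hy926 and 0.496 ± 0.0523 in HMEC-1. The next gene per length was PCDHB5 in EA.hy926 (1.25 ± 0.205) and PCDHB13 in HMEC-1 (0.252 ± 0.042), in neither line overlapping PCDHB2. These levels divide PCDHB2 by 2301 of its 4098 exon bases, leaving out those under PCDHB1-AS1, and PCDHB13 by all 5061. If the counting used strand, reads from the bases left out were in the PCDHB2 count, and its level would be too high. The size of the lead of PCDHB2 over PCDHB13 in HMEC-1, and the lack of overlap between them, therefore depend on a setting that is not given.

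PCDHB5 (chr5:141135206-141138615) had the largest difference in the cluster. Its counts were 114, 151, 114, 151 and 127 in EA.hy926 and 7, 1, 3, 3 and 1 in HMEC-1, so it was close to absent from HMEC-1. The log2FC was 5.55 (SE 0.27, edgeR adjusted p = 2.6e-14), and 6.13 without HMEC-1 replicate 1. PCDHB7 had 45, 43, 45, 43 and 53 counts in EA.hy926 and 2, 2, 1, 4 and 0 in HMEC-1 (log2FC 4.72, SE 0.33, edgeR adjusted p = 1.4e-11). PCDHB16 had 39, 29, 47, 55 and 30 counts against 3, 1, 2, 0 and 5 (log2FC 4.25, SE 0.38, edgeR adjusted p = 1.0e-09). Both were thus a few counts at most in HMEC-1, where a value of 3 counts was 0.0651 to 0.0856 CPM.

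The remaining called beta genes had smaller log2FC than PCDHB5, PCDHB7 and PCDHB16. PCDHB14 had 139, 132, 129, 137 and 133 counts in EA.hy926 and 23, 21, 24, 26 and 31 in HMEC-1 (log2FC 2.57, SE 0.14, edgeR adjusted p = 1.4e-13). PCDHB12 had 19, 30, 14, 16 and 14 counts against 5, 1, 9, 4 and 4 (log2FC 2.15, SE 0.38, edgeR adjusted p = 2.4e-05). PCDHB15 had 20, 19, 22, 21 and 29 counts against 11, 13, 12, 10 and 12 (log2FC 1.08, SE 0.23, edgeR adjusted p = 1.7e-04). The PCDHB15 call stood just past the fold threshold and was lost without EA.hy926 replicate 5 (0.98). The other 3 beta genes called, PCDHB8, PCDHB9 and PCDHB10, had log2FC of 2.84, 2.87 and 3.16.

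PCDHB13, chosen after its values were seen, was the tested beta gene without a call. It had 51, 42, 54, 55 and 59 counts in EA.hy926 and 57, 43, 56, 49 and 49 in HMEC-1. The ranges overlapped fully, and the log2FC was 0.18 (SE 0.15, edgeR adjusted p = 0.254). PCDHB13 thus took 5.65% ± 0.665 of the beta counts in EA.hy926 and 31.8% ± 2.07 in HMEC-1, while PCDHB5 took 14.2% ± 1.83 and 1.85% ± 1.5. Of the 5 beta genes not tested, PCDHB1 had no count in any library. PCDHB6, named after its values were seen, had 12, 10, 7, 12 and 7 counts in EA.hy926 but none in HMEC-1, which makes it at least 17.8-fold higher in EA.hy926, against a floor of 3 counts over the 5 HMEC-1 libraries.

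**Figure D3:**
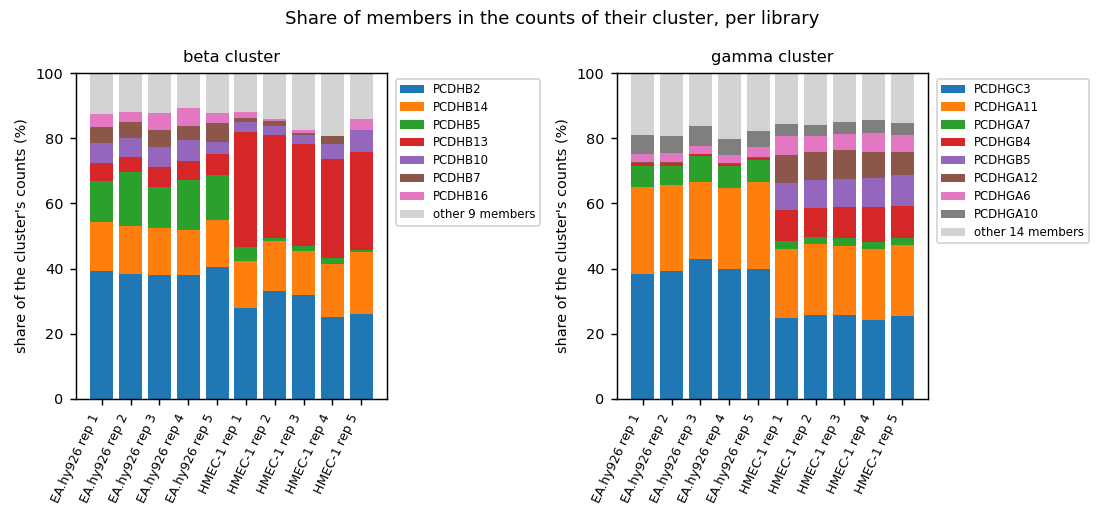
Share of single members in the counts of the beta cluster (left) and of the gamma cluster (right), in percent, for each of the 10 libraries, with the remaining members in grey. PCDHB13 widens from 5.65% to 31.8% of the beta counts from EA.hy926 to HMEC-1, and PCDHGB4, PCDHGB5 and PCDHGA12 widen from under 1% each to 9.78%, 8.67% and 8.31% of the gamma counts.

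The alpha cluster was close to silent. PCDHA4 (chr5:140807037-141012347) was the alpha gene that passed the filter, with 55, 45, 50, 52 and 42 counts in EA.hy926 and 6, 9, 9, 14 and 13 in HMEC-1. The lines did not overlap, and the log2FC was 2.40 (SE 0.22, edgeR adjusted p = 1.3e-09). PCDHA4 was over the cutoff in only 2 HMEC-1 libraries and so passed the filter through EA.hy926. It took 82.4% ± 4.66 of the alpha counts of EA.hy926 and was the highest alpha gene there per length, at 0.128 ± 0.0127 CPM per kilobase. PCDHA7 came next per length in EA.hy926, without overlap, with 5, 6, 6, 5 and 8 counts against 0, 1, 0, 0 and 1 in HMEC-1. On the summed counts that was a ratio of 16.7 (95% interval 4.23 to 144, counting error only).

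PCDHA3 (chr5:140801028-141012347) had the opposite pattern. It had no count in EA.hy926 and 13, 8, 16, 8 and 3 in HMEC-1, at least 14.4-fold higher in HMEC-1 against the floor of 3 counts. Per length PCDHA3 was the highest alpha gene of HMEC-1 (0.066 ± 0.0336 CPM per kilobase), though its range overlapped that of PCDHA4 (0.0241 ± 0.00777). The C-type alpha genes were at the limit of detection. PCDHAC1 had 0 counts in EA.hy926 and 1, 0, 2, 1 and 0 in HMEC-1, and PCDHAC2 had 0 in EA.hy926 and 1, 0, 0, 1 and 1 in HMEC-1. At this depth no difference in PCDHAC2 was detectable, both lines being at or under the floor.

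In the gamma cluster a common core was shared by the lines and a second group of genes was nearly restricted to HMEC-1. PCDHGC3 (chr5:141475947-141512977), a C-type gene, had the most counts in both, with 591, 506, 611, 580 and 532 in EA.hy926 and 930, 1045, 1245, 1046 and 1023 in HMEC-1. The lines did not overlap, but the log2FC of -0.75 (SE 0.048, edgeR adjusted p = 3.7e-12) did not reach the fold threshold. PCDHGA11 (chr5:141421047-141512975) came second, with 413, 343, 340, 362 and 358 counts in EA.hy926 and 783, 889, 1027, 934 and 867 in HMEC-1. Every HMEC-1 library was higher (log2FC -1.16, SE 0.051, edgeR adjusted p = 4.5e-15). Per length the order was the same in both lines, PCDHGC3 at 4.8 ± 0.356 and 8.09 ± 0.196 CPM per kilobase and PCDHGA11 at 2.77 ± 0.197 and 6.17 ± 0.119, and these neighbours did not overlap.

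PCDHGB5 (chr5:141397947-141512975) showed the largest difference of any member. It had 0, 0, 0, 0 and 1 counts in EA.hy926 and 304, 346, 418, 376 and 376 in HMEC-1. The ratio of the summed counts was 1637 in favour of HMEC-1 (95% interval 293 to 64706, counting error only), and the gene was called (edgeR adjusted p = 6.2e-20). PCDHGA12 (chr5:141430507-141512975) had 4, 3, 0, 5 and 3 counts against 321, 349, 432, 352 and 292 (log2FC -6.65, SE 0.19, edgeR adjusted p = 2.2e-18). PCDHGB4 (chr5:141387698-141512975), named after its values were seen, had 15, 11, 6, 7 and 6 counts against 358, 368, 459, 464 and 403 (log2FC -5.34, SE 0.15, edgeR adjusted p = 1.9e-18). In HMEC-1 these 3 genes ranked after PCDHGC3 and PCDHGA11 in counts, and in EA.hy926 none exceeded 15 counts in a library. PCDHGB5 and PCDHGA12 reached the filter's cutoff in no EA.hy926 library and PCDHGB4 in 2. All 3 thus passed the filter through HMEC-1, which favoured their direction.

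The C-type gene PCDHGC4 (chr5:141484997-141512975) followed the same pattern at a lower level, with 1, 0, 0, 2 and 1 counts in EA.hy926 and 73, 78, 90, 74 and 88 in HMEC-1 (log2FC -6.31, SE 0.32, edgeR adjusted p = 6.6e-14). PCDHGC4 too passed the filter through HMEC-1 alone. PCDHGC5 had no count in EA.hy926 and 6, 1, 7, 6 and 10 in HMEC-1, at least 9.0-fold higher in HMEC-1 against the floor. The 3 gamma C-type genes therefore spanned from a shared, abundant gene to genes seen almost entirely in HMEC-1. The other gamma genes called higher in HMEC-1 were PCDHGA3, PCDHGA4, PCDHGA6, PCDHGA8, PCDHGA9, PCDHGB3 and PCDHGB6. Their log2FC ran from -3.92 for PCDHGB6 to -1.04 for PCDHGA4.

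2 gamma calls stood near the fold threshold. PCDHGA4 had 25, 28, 16, 17 and 13 counts in EA.hy926 and 46, 41, 44, 53 and 42 in HMEC-1 (SE 0.22, edgeR adjusted p = 1.8e-04), and its call was lost without EA.hy926 replicate 3 (-0.97), 4 (-0.96) or 5 (-0.90), or without HMEC-1 replicate 1 (-0.99) or 4 (-0.99). PCDHGA2 (chr5:141338760-141512975) was the gamma gene called higher in EA.hy926, with 64, 29, 41, 57 and 39 counts against 27, 30, 19, 27 and 17 (log2FC 1.07, SE 0.22, edgeR adjusted p = 1.5e-04). Scaled for library size its lines did not overlap, but the call was lost without EA.hy926 replicate 1 (0.94) or HMEC-1 replicate 3 (0.94) or 5 (0.97). PCDHGA1, PCDHGB1, PCDHGB2, PCDHGA7 and PCDHGB7 had log2FC of -0.20, -0.56, 0.26, 0.11 and -0.24 and did not pass the test, with ranges that overlapped. PCDHGA5 and PCDHGA10 were lower in EA.hy926 by adjusted p alone (-0.76 and -0.84).

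**Figure D4:**
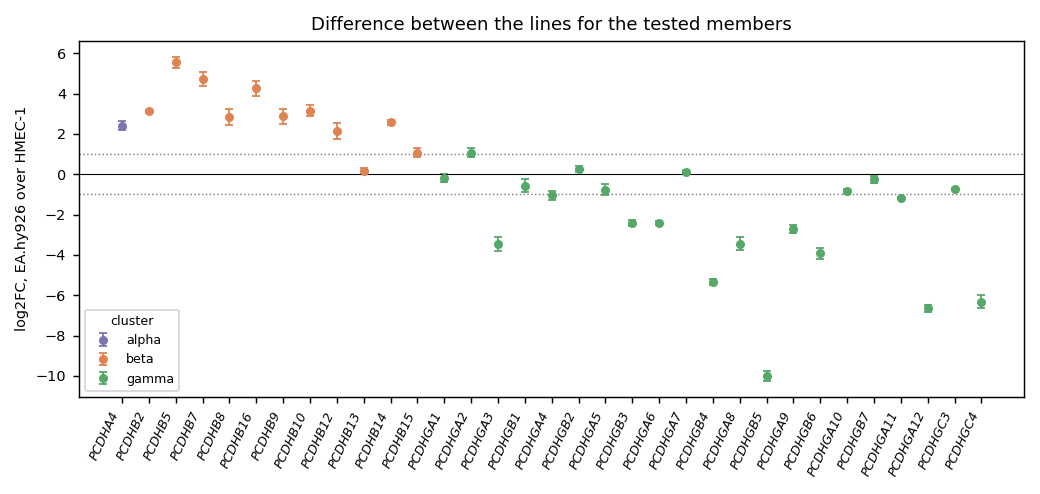
Log2 fold change of the 33 tested members in chromosome order (vertical axis, EA.hy926 over HMEC-1, positive for higher in EA.hy926) with the SE of the fit as error bars, coloured by cluster, and dotted lines at a log2FC of 1 in either direction. The tested beta genes lie between 0.18 and 5.55 and the gamma genes between -10.01 and 1.07, the lowest being PCDHGB5, whose fitted value depends on the prior count because it had 1 count in EA.hy926 (-11.44 without that library, replicate 5).

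A few genes held most of the counts of each cluster. PCDHGC3, PCDHGA11 and PCDHGA7 made up 72.6% ± 1.46 of the gamma counts in EA.hy926. In HMEC-1 the leading 3 genes, PCDHGC3, PCDHGA11 and PCDHGB4, made up 56.4% ± 0.598. In the beta cluster PCDHB2, PCDHB14 and PCDHB5 made up 67.6% ± 1.76 in EA.hy926, and PCDHB13, PCDHB2 and PCDHB14 made up 76.3% ± 3.05 in HMEC-1. By gamma subfamily, 7 of 12 gamma A genes and 4 of 7 gamma B genes were called higher in HMEC-1, where 16.4% of all genes tested were. Of these, PCDHGA4, PCDHGA6, PCDHGA11 and PCDHGB3 were over the filter's cutoff in every library. The others were over it in every HMEC-1 library but not in every EA.hy926 library, so the filter favoured their direction. These shares therefore cannot be read as an excess over 16.4%, and the difference between the subfamilies was not tested. These are levels in bulk RNA, in which fewer cells expressing a gene and less RNA per cell cannot be told apart.

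Genes known to control protocadherin promoters were examined next. Of 31 listed regulators (CTCF, cohesin and its loaders, REST, DNA methylation and silencing factors) all were tested and 2 were called, where 35.5% of all genes tested were called. An adjusted p under 0.05 was reached by 29 of the 31, near the 85.8% of all genes tested that reached it, and the median log2FC was -0.30. LRIF1, a partner of the silencing factor SMCHD1, was higher in EA.hy926, with 2099, 1851, 2058, 2070 and 2016 counts against 613, 793, 810, 702 and 648 (log2FC 1.65, SE 0.041, edgeR adjusted p = 1.5e-19). PDS5B, a cohesin regulator, was higher in HMEC-1, with 1249, 1043, 1229, 1299 and 1231 counts against 2821, 3229, 3678, 3498 and 3317 (log2FC -1.30, SE 0.036, edgeR adjusted p = 1.2e-18). CTCF, the looping factor, had a log2FC of 0.23 (SE 0.029, edgeR adjusted p = 1.5e-07), and SMCHD1, which silences clustered genes, -0.60 (SE 0.026, edgeR adjusted p = 5.1e-15). The de novo methyltransferase DNMT3B had 302, 271, 315, 362 and 319 counts against 589, 600, 713, 661 and 618 (log2FC -0.87, SE 0.057, edgeR adjusted p = 5.3e-12). REST, a repressor of neuronal genes, did not pass the test (log2FC 0.05, SE 0.04, edgeR adjusted p = 0.207). A link between any regulator and a member was not tested.

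The non-clustered protocadherins are related adhesion genes outside the clusters, of which PCDH1 and PCDH12 lie within 500 kb of them. Of 12 listed, 7 were tested and 4 called, where 35.5% of all genes tested were called. PCDH15, known from the inner ear, had 921, 759, 823, 865 and 836 counts in EA.hy926 but none in HMEC-1, a difference of at least 1558-fold against the floor. PCDH18 had 4, 0, 1, 0 and 0 counts in EA.hy926 and 110, 121, 154, 140 and 132 in HMEC-1 (log2FC -6.72, SE 0.32, edgeR adjusted p = 2.1e-14). Without EA.hy926 replicate 1, which held 4 of the EA.hy926 counts, the log2FC was -8.32. PCDH12, an endothelial protocadherin, had 1209, 814, 947, 979 and 922 counts against 82, 71, 84, 61 and 73 (log2FC 3.86, SE 0.10, edgeR adjusted p = 3.7e-19). PCDH9, the fourth, had a log2FC of -2.44. PCDH15 reached the filter's cutoff in no HMEC-1 library and PCDH18 in no EA.hy926 library. Both passed the filter through 1 line alone, which fixed their direction. The 4 calls therefore cannot be read as an excess over 35.5%. As among the clustered genes, both directions occurred.

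Of 22 genes that act on or with protocadherin proteins (the protease ADAM10, gamma-secretase, focal adhesion kinases, the WAVE complex), 21 were tested and 3 called, where 35.5% of all genes tested were called, with a median log2FC of -0.09. CYFIP2, a subunit of the WAVE complex, had 4967, 4250, 4620, 4712 and 4601 counts in EA.hy926 and 280, 329, 391, 329 and 303 in HMEC-1 (log2FC 3.98, SE 0.038, edgeR adjusted p = 2.2e-26). PTK2B, a kinase that protocadherin tails inhibit, was higher in HMEC-1 (log2FC -1.37, SE 0.069, edgeR adjusted p = 6.1e-14). PSENEN, a gamma-secretase subunit, was higher in EA.hy926 (log2FC 1.06, SE 0.14, edgeR adjusted p = 7.5e-07), a call that was lost without HMEC-1 replicate 5 (0.94). ADAM10, which sheds protocadherin ectodomains, had a log2FC of -0.41 (SE 0.023, edgeR adjusted p = 4.4e-13).

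Of 31 other protein-coding genes between the first and last member or within 500 kb of them, 26 were tested and 2 were called, where 35.5% of all genes tested were called. An adjusted p under 0.05 was reached by 24 of the 26, where 85.8% of all genes tested reached it in either direction. Of the 24, 20 were higher in EA.hy926, and the share of all genes tested in that direction alone was not taken. The called genes were PCDH12 and CD14, a receptor for bacterial lipopolysaccharide, which had 2, 1, 0, 1 and 4 counts in EA.hy926 and 20, 26, 17, 25 and 19 in HMEC-1 (log2FC -3.50, SE 0.42, edgeR adjusted p = 1.1e-07), and a log2FC of -4.11 without EA.hy926 replicate 5. CD14 reached the filter's cutoff in no EA.hy926 library and passed the filter through HMEC-1 alone, which fixed its direction. Leaving out the protocadherins, the 24 tested neighbours had a median log2FC of 0.42 and ranged from -3.5 to 0.97.

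**Figure D5:**
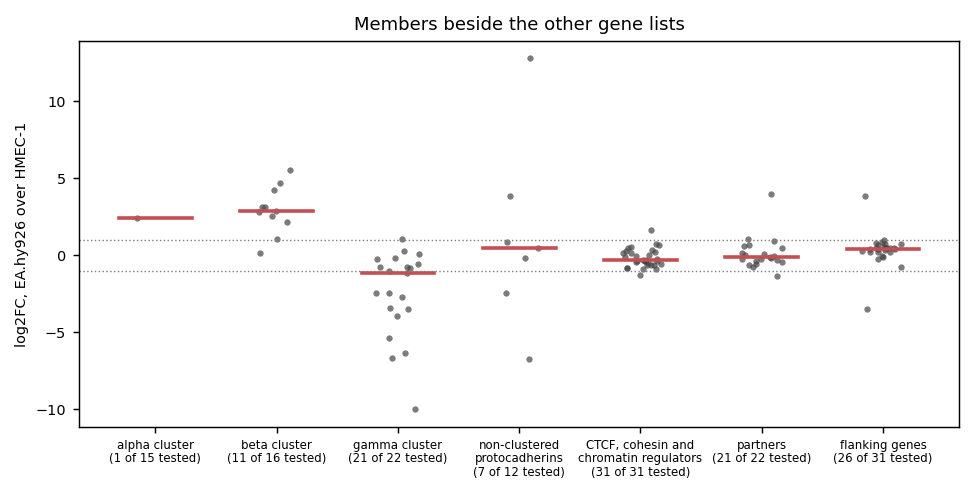
Log2 fold change (vertical axis, EA.hy926 over HMEC-1) of the tested genes of the alpha, beta and gamma clusters beside those of the non-clustered protocadherins, the regulators, the partners and the flanking genes, each point a gene and each bar the median of its list. The medians are 2.40, 2.87 and -1.16 for the clusters and 0.48, -0.30, -0.09 and 0.44 for the lists, the highest point is PCDH15, whose fitted value is no measured fold because HMEC-1 had 0 counts, and dotted lines mark a log2FC of 1.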

How the data were processed

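Poly(A) RNA of 10 untreated libraries was sequenced. The authors aligned reads to GRCh38 with HISAT2, and they deposited raw counts per Ensembl gene. The paper's methods name HTSeq as the counter and the submitters' processing notes name featureCounts (also fastp and DESeq2). The annotation release, strand setting and treatment of shared exons are not given in the sources used here. Lines and replicate numbers came from the titles. Symbols, types and exons came from GENCODE 44 (93.4% of the IDs matched).

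Low genes were removed by filterByExpr (at its settings of 10 counts and a total of 15), and the libraries were scaled by TMM factors (0.942 to 0.964 in EA.hy926, 1.04 to 1.05 in HMEC-1) and tested with edgeR 4.0.16 (glmQLFTest) across all genes, with limma 3.58.1 and DESeq2 1.42.0 as alternatives, after the pipeline was tested on simulated data. Levels per kilobase used exon bases no other gene overlaps. Bounds used a floor of 3 counts over the libraries of a line, and intervals were 95% exact for counting error. Same-numbered libraries did not deviate together (correlations of -0.0228 to 0.0389), so numbers were not taken as pairs. The members and lists were chosen with earlier results of these data known. Named genes were, per cluster, the 3 highest and the 3 lowest log2FC among those called, the highest per length, the C-type genes, the 3 largest called of each list, and CTCF, REST, DNMT3B, SMCHD1, PCDH12 and ADAM10. The closing section gives the alternatives.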

Additional observations from a re-analysis of the deposited data

Results flagged for a closer look

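Among the members, lists and cluster sums examined, 7 of 63 groups of 5 libraries held a library whose gap to its nearest neighbour was large for the range of its group, and chance flags about 1 in 20 groups. PCDHB2 was at 10.4 CPM in EA.hy926 replicate 2 and at 9.76 to 9.94 in the others. PCDHB12 was at 0.904 CPM in the same library and at 0.377 to 0.514 in the others, on 30 counts. PCDHB5 was at 0.2 CPM in HMEC-1 replicate 1, on 7 counts, and at 0.0245 to 0.0736 in the others. The gamma sum was 99.9 CPM in HMEC-1 replicate 2 and 105 to 106 in the others. Outside the clusters, LRIF1 was at 19.4 CPM in HMEC-1 replicate 2, above the others, CYFIP2 at 8.48 CPM in HMEC-1 replicate 3 (others 7.93 to 8.07) and PCDH18 at 0.108 CPM in EA.hy926 replicate 1, on 4 counts (others 0 to 0.0285). None of these gaps bridged the difference between the lines, and their cause was not tested.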

How the results depend on the processing

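With DESeq2, limma-voom, RLE factors and the replicate block, 12 members were called in each direction. The block on replicate number gave 12, 12 and 27 members with an adjusted p under 0.05, as without the block. No filter tested 48 members (16 called higher in EA.hy926, 14 in HMEC-1), and a test against a log2FC of 1 called 10 and 11. At least 10 counts in every library left 15 members tested, with 4 called higher in EA.hy926, 4 in HMEC-1 and 10 by adjusted p, 2 non-clustered protocadherins and 1 flanking gene called. Library totals without factors moved the median of all genes from -0.01 to -0.15. They gave 10 and 12 called members, 4 called regulators, a gamma log2 ratio of -1.55 (-1.42 with factors), log2FC of REST at -0.082, reversed, and PCDHB15 (0.94), PCDHGA2 (0.94) and PSENEN (0.92) under the fold threshold with DNMT3B past it. Without the member with the most counts, log2 ratios were -0.22 for alpha (reversed), 2.46 for beta (2.68 with it) and -1.74 for gamma, and the alpha share was 0.736% in EA.hy926 and 0.418% in HMEC-1. Leaving out each library in turn gave 11 to 13 members higher in EA.hy926, 11 to 12 in HMEC-1 and 27 to 28 by adjusted p. It gave 2 to 3 called partners, with cluster log2 ratios of 1.41 to 1.53, 2.62 to 2.73 and -1.45 to -1.39. The causes were not tested. Depth limits the alpha genes, most of which had fewer than 10 counts per library, and intervals and floors cover counting error only.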

Other observations

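The annotated pseudogenes of the clusters, outside the comparisons above, were low. Of 6, none passed the filter. PCDHGB8P had 6, 5, 3, 12 and 4 counts in EA.hy926 and 19, 19, 12, 7 and 8 in HMEC-1, with ranges that overlapped. PCDHGB9P had 0, 1, 0, 0 and 1 counts in EA.hy926 and 2, 4, 2, 4 and 1 in HMEC-1. PCDHB18P had 7, 7, 2, 5 and 1 counts against 0, 4, 5, 4 and 2. PCDHB17P had 0, 4, 0, 0 and 2 counts in EA.hy926 and 0 in every HMEC-1 library.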
